A study of Mus musculus with 16 samples.

Results

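Of 16 RNA-seq libraries of mouse intestinal organoids, 6 are described here, the 3 titled APCCM and the 3 titled WTCM on culture day 2, set against each other across all genes. Organoids are closed epithelial structures grown from intestinal crypts in a gel, and they contain dividing crypt cells together with the mature cell types of the gut lining. The 6 libraries were chosen by their titles alone, and all came from organoids of C57BL6 background kept with conditioned medium (CM), culture medium taken from other organoids. Per the labels' protocols, crypts came from Lgr5-EGFP-IRES-CreERT2 mice, from the same line with Apcfl/fl, or from Villin-CreERT2.Apcfl/fl mice, and Apc was deleted in culture with 4OH-Tamoxifen, which switches on the Cre recombinase. The Lgr5 line served as wild type and carried an mCherry construct, and the recombined line, called Apc-/-, carried a Venus construct. All cultures were given EGF, R-spondin and Noggin, so R-spondin, which raises the response to Wnt ligands, was present in both groups. The CM was taken from cultures of wild type or of Apc-/- organoids and was refreshed with these factors before use.

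The labels of these libraries contradict each other. The genotype tag reads Apc mutant for APCCM and WT for WTCM, whereas the treatment tag names CM of Apc-mutant cultures for all 6. The titles can therefore refer either to the genotype of the sequenced organoids or to the organoids that conditioned the medium, and Wnt target genes were read before any other result. No label states whether the 3 libraries of a group came from separate cultures, so p-values measure the spread between these libraries, which may be technical.

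Apc is a scaffold of the complex that destroys beta-catenin, so that cells lacking it express Wnt targets without a ligand. Cells without Apc are known to shed antagonists of the same pathway, which act on neighbouring cells. Interferon and NF-kB signalling are the main routes by which epithelial cells answer microbial and inflammatory signals, and hypoxia-inducible factors set the level of glycolytic enzymes when oxygen is short.

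Apc itself (ENSMUSG00000005871, GRCm38 chromosome 18, 34220924 to 34322552) was read first. It stood at 267, 242 and 264 CPM (gene counts scaled to the same total in every library) in the APCCM libraries and at 241, 241 and 236 CPM in the WTCM libraries. The log2 fold change was 0.09 (SE 0.05, adjusted p = 0.20). The deposited count pools all exons, those removed by Cre included, so this value checks neither label. The untreated libraries of the series give the levels to compare with, and there Apc was at 309.9 and 273 CPM in the mutant pair, against 77.7 and 83.8 CPM in the wild type pair. In this gene every CM library lay nearer to the untreated mutant pair, and the reason was not tested.

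Several Wnt targets with high levels in untreated mutant organoids were near wild type levels in all 6 CM libraries. Notum, a secreted enzyme that inactivates Wnt ligands, stood at 0.640, 0.723 and 0.592 CPM in APCCM and at 0.128, 0.537 and 0.429 CPM in WTCM libraries, against 321 and 392 CPM in untreated mutant and 0.367 and 0.240 CPM in untreated wild type organoids. Prox1, a homeobox factor of Wnt-driven tumours, stood at 2.95, 2.84 and 3.99 CPM in APCCM and at 2.94, 3.22 and 3.43 CPM in WTCM libraries. Untreated mutants held 1258 and 1159.5 CPM and untreated wild type organoids 4.95 and 3.36 CPM. The secreted antagonist Dkk2 had 0 counts in all 6 libraries, against 4.48 and 3.22 CPM in untreated mutants and 0 in untreated wild type. Wif1, which binds Wnt ligands, stayed at or below 0.395 CPM in the 6. Untreated mutants held 42.7 and 42.4 CPM of it and untreated wild type organoids 0.0917 and 0 CPM. The stem cell marker Olfm4, listed at 0.259 and 0.384 CPM in untreated mutants, stood at 1854 to 1984 CPM in APCCM and at 2380.3 to 2635 CPM in WTCM libraries. Untreated wild type organoids held 2122 and 2279 CPM of it. Axin2 read above the untreated wild type level, at 249 to 269.8 CPM in APCCM and 309.8 to 337 CPM in WTCM libraries. That small step is not used, because the untreated libraries hold another RNA fraction, as described below. Untreated wild type organoids held 196 and 172 CPM of Axin2 and untreated mutants 836 and 975 CPM.

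A genome-wide reading gave the same picture. Of 114 genes at 10 CPM or more in both untreated mutant libraries and at 0.5 CPM or less in both untreated wild type libraries, 0 reached 10 CPM in all 3 APCCM libraries and 0 did so in all 3 WTCM libraries. Their median level was 0.128 CPM in APCCM and 0.107 CPM in WTCM libraries, against 20.9 CPM in untreated mutants. Of 158 genes with the opposite pattern, 122 were at 10 CPM or more in all 3 APCCM libraries and 122 in all 3 WTCM libraries. The untreated libraries hold another RNA fraction, with histone genes at 50.5 to 53.1 CPM in sum against 4865 to 5706 CPM in the 6 CM libraries, so small differences across that border are not used. They also differ in sex-linked transcripts, with Xist at 4614 and 4113 CPM in untreated mutant and 2175 and 2423 CPM in untreated wild type libraries, and Ddx3y at 0.183 CPM in 1 wild type library and 0 in the other 3. The part of sex in the comparison with the untreated libraries was not tested. The Wnt targets named thus read nearer to wild type than to mutant cells in both groups. This goes against the genotype tag of the APCCM libraries. Wnt targets do not show which medium was given. Reading WTCM as wild type medium also goes against the treatment tag, which names CM of Apc-mutant cultures for all 6 libraries. APCCM and WTCM are used below as the source of the medium, Apc mutant or wild type, and every direction rests on that reading of the titles.

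**Figure D1:**
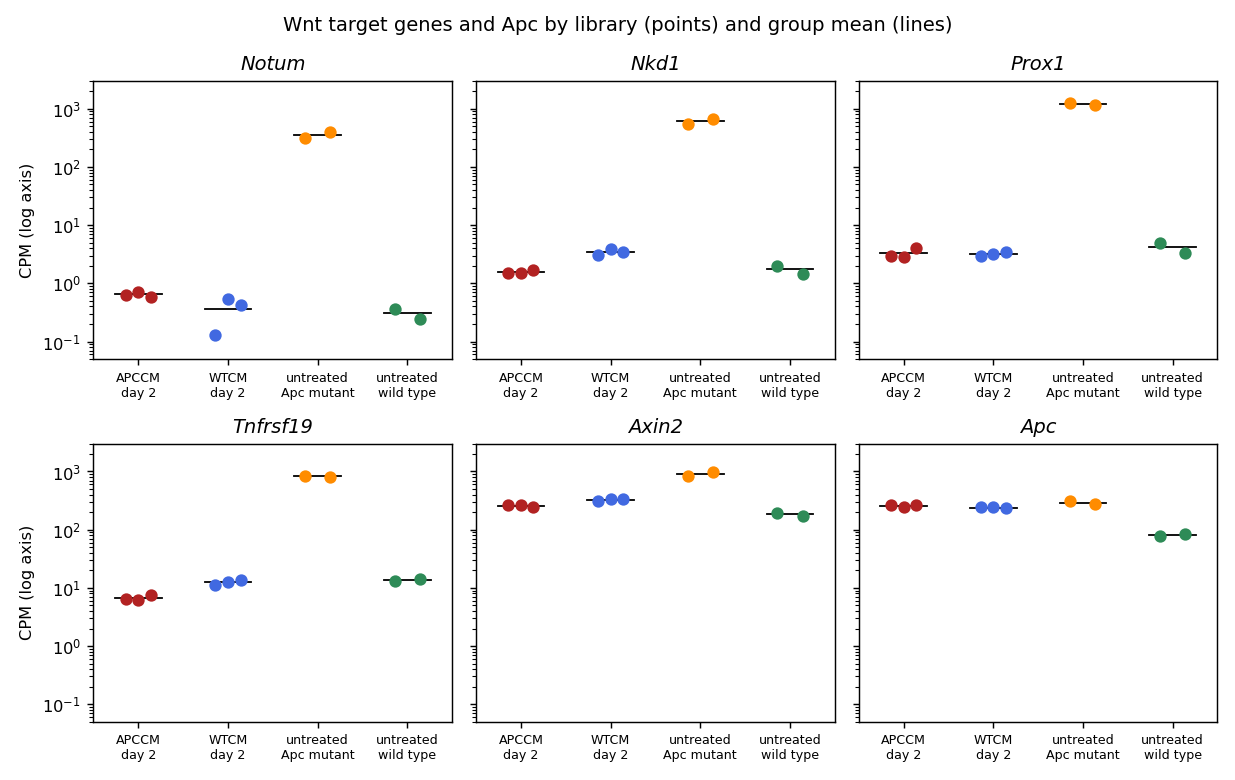
CPM on a log axis of 5 Wnt target genes and Apc in each library (points) with the group mean (line), for APCCM and WTCM libraries on day 2 (n = 3 each) and untreated Apc mutant and wild type libraries on day 2 (n = 2 each). Notum, Nkd1, Prox1 and Tnfrsf19 lie near wild type levels in the APCCM and the WTCM libraries and far higher in untreated mutants. Axin2 lies above wild type and well below mutant levels in both groups, and Apc lies nearer to the untreated mutants. The untreated libraries hold another RNA fraction, so the small step of Axin2 above wild type is not used.

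Gene counts came to 17986815 to 20312459 in the APCCM libraries and to 20489707 to 23448869 in the WTCM libraries. Markers of intestinal epithelium summed to 8304 to 8863 CPM in APCCM and to 7806 to 8047 CPM in WTCM libraries. Fibroblast markers summed to 5.06 to 6.90 CPM in APCCM and 4.00 to 6.19 CPM in WTCM libraries, with Col3a1, Dcn, Lum, Foxl1 and Thy1 at 0 in all 6. Immune markers summed to 4.95 to 5.12 CPM in APCCM and 4.86 to 5.81 CPM in WTCM libraries, with Cd3d, Nkg7 and S100a8 at 0. Endothelial and neural markers lay at 4.58 to 5.67 CPM in APCCM and 4.90 to 5.86 CPM in WTCM libraries, with 5 of 11 at 0. Mitochondrial transcripts took 2.64 to 3.14% of gene counts in APCCM and 2.23 to 2.52% in WTCM libraries, ranges that do not overlap, and their part in the results was not tested. The share of reads outside annotated genes was 15.6 to 19.2% in APCCM and 14.4 to 16.5% in WTCM libraries. Xist stood at 3.20, 5.11 and 11.0 CPM in APCCM and at 2.00, 1.12 and 2.76 CPM in WTCM libraries. In the main test, described below, it was called higher in APCCM (log2 fold change 1.69, SE 0.34, adjusted p = 0.0011), and the reason was not tested. The Y-linked Ddx3y lay at 92.5 to 98.0 CPM in APCCM and 80.6 to 94.4 CPM in WTCM libraries and was not called (adjusted p = 0.19).

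Medium from mutant cultures went with broad but mostly small differences. At an adjusted p under 0.05 in edgeR's quasi-likelihood test, 3331 of 14371 tested genes (23.2%) were called, 1727 higher in APCCM (12%) and 1604 lower (11.2%). The median log2 fold change was 0.35 among those higher and -0.25 among those lower, and 0.004 over all genes tested. A change of at least 2-fold was reached by 263 genes (1.83%), 186 higher and 77 lower. Libraries of the groups did not overlap at 5352 tested genes (37.2%) and at 3190 of the 3331 called (95.8%). In the lists described below, a share of members called near 23.2% is no more than the background. For members called in a single direction the background is 12% for higher and 11.2% for lower. In bulk RNA, fewer cells of a type and less RNA per cell cannot be told apart.

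**Figure D2:**
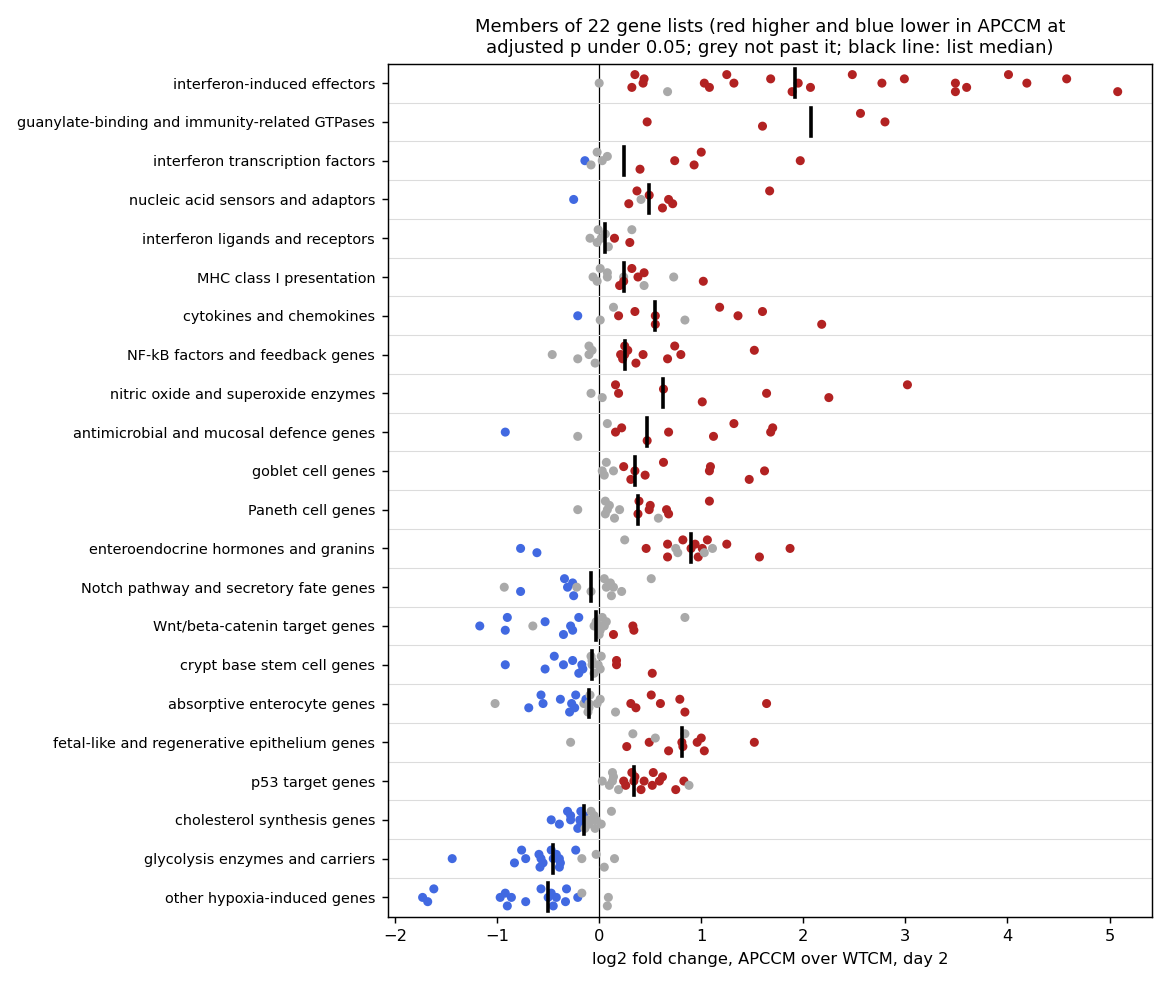
Log2 fold change of APCCM over WTCM on day 2 for the tested members of 22 gene lists, 1 point a gene, in red where higher and in blue where lower at an adjusted p under 0.05, with the list median as a black line. Interferon-induced effectors have a median of 1.92 and reach 5.08, but members near silence in the WTCM libraries passed the low-count filter through the APCCM libraries. Glycolysis and other hypoxia-induced genes lie mostly below 0.

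Interferon-stimulated genes held the largest rises among ranked genes. The ranking covered called genes averaging at least 5 CPM in the higher group, with no overlap between libraries of the groups. Predicted, clone-based and pseudogene names were left out of it. Of the 12 ranked genes with the largest increase, Oasl2, Ifit1, Ddx60, Ifit1bl1, Ifi27, Irf7 and Oas1a belong to the interferon response. The RefSeq promoter windows of Oasl2, Ifit1, Ddx60, Oas1a and Irf7 were looked at, and the 3 that held a match are printed as examples. Each window runs from 250 bases before to 50 bases after the gene start on GRCm38.p6, on the gene's strand. Capitals mark the interferon-stimulated response element (ISRE), searched on both strands as TTTC, a pair of any bases and TTTC, so a match on the other strand reads GAAA, a pair of any bases and GAAA. The Oas1a window holds overlapping matches, printed as 1 run of capitals.
Ifit1, chr19:34640639-34640938, plus strand: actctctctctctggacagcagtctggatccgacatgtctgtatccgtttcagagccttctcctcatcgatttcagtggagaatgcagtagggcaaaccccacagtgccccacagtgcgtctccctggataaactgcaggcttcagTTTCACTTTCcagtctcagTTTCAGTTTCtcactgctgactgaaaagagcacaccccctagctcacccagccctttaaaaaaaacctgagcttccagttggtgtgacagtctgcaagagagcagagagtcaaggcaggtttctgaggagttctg
Ddx60, chr8:61927837-61928136, plus strand: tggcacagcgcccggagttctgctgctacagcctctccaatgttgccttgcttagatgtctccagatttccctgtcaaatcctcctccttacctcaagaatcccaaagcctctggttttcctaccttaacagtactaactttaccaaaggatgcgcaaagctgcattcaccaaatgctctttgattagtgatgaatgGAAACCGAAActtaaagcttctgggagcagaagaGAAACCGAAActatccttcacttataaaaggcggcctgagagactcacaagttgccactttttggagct
Oas1a, chr5:120907476-120907775, minus strand: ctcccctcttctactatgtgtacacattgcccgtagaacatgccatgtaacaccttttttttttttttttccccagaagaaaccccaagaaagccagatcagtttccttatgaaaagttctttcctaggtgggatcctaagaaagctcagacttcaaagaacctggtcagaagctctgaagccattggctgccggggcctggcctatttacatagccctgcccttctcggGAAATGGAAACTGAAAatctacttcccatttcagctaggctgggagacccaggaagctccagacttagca
The matches began 104 and 85 bases before the Ifit1 start, 53 and 19 bases before the Ddx60 start, and 20 and 14 bases before the Oas1a start. Among the tested interferon-induced effectors, 18 of 24 had an entry, and 9 of their 20 windows held a match (45%), against 3.44% of the 32851 windows of all genes. The Oasl2 and Irf7 windows held none, which says only that these letters are not in those windows.

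The interferon genes looked at were not detected at this depth. Ifnb1, Ifne, Ifnk, Ifnl2, Ifnl3 and Ifng had 0 counts in all 6 libraries, where 3 counts in a library come to 0.128 to 0.167 CPM, and the Ifna genes were not examined. Among receptors and their kinases, 2 of 9 tested genes were called higher and 0 lower. Ifnlr1, the receptor chain for type III interferons, averaged 22.8 ± 0.899 CPM in APCCM and 18.3 ± 1.36 CPM in WTCM libraries (log2 fold change 0.30, SE 0.08, adjusted p = 0.0063). The other called gene was Ifngr1, and the count fell to 1 without APCCM replicate 2, WTCM replicate 2 or WTCM replicate 3. Ifnar1, a chain of the type I receptor, stood at 65.5 to 67.7 CPM in APCCM and at 63.5 to 68.6 CPM in WTCM libraries (log2 fold change -0.01, adjusted p = 0.95). Its partner Ifnar2 stood at 7.62 to 8.07 CPM in APCCM and 5.63 to 6.69 CPM in WTCM libraries, without passing the test (log2 fold change 0.32, adjusted p = 0.056).

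Sensors of foreign nucleic acid rose, 7 of 9 tested, with a median log2 fold change of 0.49. Ddx58, which encodes the RNA sensor RIG-I, stood at 31.4, 29.9 and 32.3 CPM in APCCM and at 16.4, 21.3 and 18.2 CPM in WTCM libraries (log2 fold change 0.72, SE 0.08, adjusted p = 9.8e-07). Dhx58, its regulator LGP2, stood at 5.96, 7.01 and 6.66 CPM in APCCM and at 2.05, 2.15 and 1.86 CPM in WTCM libraries (log2 fold change 1.67, SE 0.17, adjusted p = 2.8e-07). For both sensors every APCCM library lay above every WTCM library. Eif2ak2, the kinase PKR, averaged 71.4 ± 1.20 CPM in APCCM and 45.8 ± 2.94 CPM in WTCM libraries (SD, n = 3 each, log2 fold change 0.62, adjusted p = 3.8e-08). Trim25, the ubiquitin ligase that activates RIG-I, averaged 173 ± 3.56 CPM in APCCM and 121 ± 3.14 CPM in WTCM libraries (log2 fold change 0.49, adjusted p = 5.6e-08). The adaptor Mavs was the 1 member called lower, and that call was lost without APCCM replicate 3 or WTCM replicate 1.

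The factors that carry interferon signals to the nucleus rose in part. Of 10 tested, 5 were higher, among them Stat2, Irf9, Irf7 and Irf1. Irf7 (ENSMUSG00000025498, chromosome 7, 141262706 to 141266481), the factor that amplifies the type I response, stood at 23.7, 26.0 and 23.9 CPM in APCCM and at 6.61, 6.39 and 5.38 CPM in WTCM libraries (log2 fold change 1.97, SE 0.10, adjusted p = 8.3e-12). Stat2, a signal transducer of interferon receptors, and its DNA-binding partner Irf9 moved by less. Stat2 averaged 42.1 ± 2.03 CPM in APCCM and 21.7 ± 1.71 CPM in WTCM libraries (log2 fold change 0.93, adjusted p = 4.3e-09), and Irf9 26.1 ± 1.24 CPM in APCCM and 12.8 ± 0.903 CPM in WTCM libraries (log2 fold change 1.00, adjusted p = 9.2e-09). Irf1, which answers type II interferon most strongly, averaged 37.9 ± 2.41 CPM in APCCM and 28.3 ± 0.234 CPM in WTCM libraries (log2 fold change 0.40, adjusted p = 0.00012). Irf3, which is activated by phosphorylation, overlapped between the groups at 47.3 to 55.0 CPM in APCCM and 45.6 to 55.4 CPM in WTCM libraries. Irf2 was called lower, a call that was lost without any of 5 of the 6 libraries, all but APCCM replicate 2.

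Downstream effectors rose almost throughout. Of 30 members, 6 were too low to test, and of the 24 tested 22 were called higher and 0 lower, with a median log2 fold change of 1.92. Members near silence in the WTCM libraries passed the filter on low counts through the APCCM libraries, so the count does not cover the whole list. Samhd1 and Ifit2 did not pass the test. Oasl2 (ENSMUSG00000029561, chromosome 5, 114896936 to 114912234), an oligoadenylate synthetase-like protein, stood at 17.0, 22.3 and 16.1 CPM in APCCM and at 0.682, 1.42 and 0.905 CPM in WTCM libraries. That was the largest rise among the ranked genes, which average at least 5 CPM in the higher group (log2 fold change 4.19, SE 0.19, adjusted p = 2.6e-12). Ddx60, a helicase of the antiviral response, stood at 17.5, 20.7 and 17.9 CPM in APCCM and at 0.896, 2.44 and 1.67 CPM in WTCM libraries (log2 fold change 3.49, SE 0.18, adjusted p = 1.3e-11). Ifit1, which binds foreign RNA, stood at 4.48, 5.67 and 5.33 CPM in APCCM and at 0.341, 0.586 and 0.429 CPM in WTCM libraries (log2 fold change 3.49, SE 0.25, adjusted p = 2.3e-09). These genes were close to silent in the WTCM libraries and plainly read in all 3 APCCM libraries. Oas1a, which makes the oligoadenylates that activate RNase L, averaged 9.70 ± 0.453 CPM in APCCM and 2.51 ± 0.990 CPM in WTCM libraries (log2 fold change 1.95, adjusted p = 1e-07). Parp14, an ADP-ribosyltransferase, averaged 55.5 ± 3.54 CPM in APCCM and 22.0 ± 4.20 CPM in WTCM libraries (log2 fold change 1.32, adjusted p = 1.1e-09), and Ifi27 17.2 ± 1.77 CPM in APCCM and 4.06 ± 0.888 CPM in WTCM libraries (log2 fold change 2.07, adjusted p = 3.7e-10). Isg15, a ubiquitin-like modifier chosen after its values were seen, was weakly read at 2.41, 2.67 and 1.87 CPM in APCCM and at 0.0426, 0.0488 and 0.0952 CPM in WTCM libraries, which is 135 counts in sum against 4. Reads with several alignments stand in no gene, so members of the Ifit and Oas families are uncertain where copies are near-identical.

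The GTPases that attack vacuoles of intracellular microbes were mostly too low to measure. Of 16 members, 12 were too low to test, among them Gbp2, Gbp4, Gbp5 and Iigp1 at 0 counts in all 6 libraries. The 4 tested were all called higher, and they passed the filter in part through the group in which they were high, so this share is no count over the family. Irgm2 stood at 2.36, 3.56 and 3.30 CPM in APCCM and at 0.554, 0.390 and 0.571 CPM in WTCM libraries (log2 fold change 2.56, SE 0.29, adjusted p = 1.3e-06). Igtp stood at 1.67, 3.67 and 2.37 CPM in APCCM and at 0.299, 0.390 and 0.381 CPM in WTCM libraries (log2 fold change 2.80, SE 0.35, adjusted p = 6.3e-06). The annotations of Igtp and Irgm2 overlap on the same strand. Reads that fit both may stand in neither, so their values may not be fully separate. Irgm1, the well-expressed regulator of the family, averaged 40.6 ± 1.24 CPM in APCCM and 29.0 ± 2.31 CPM in WTCM libraries (log2 fold change 0.47, adjusted p = 2.1e-05). In MHC class I presentation 6 of 14 tested genes rose and 0 fell. Tap1, which pumps peptides into the endoplasmic reticulum, averaged 22.4 ± 3.53 CPM in APCCM and 10.9 ± 0.443 CPM in WTCM libraries (log2 fold change 1.02, adjusted p = 2.6e-07). B2m, the light chain of the complex, averaged 221 ± 9.21 CPM in APCCM and 168 ± 6.92 CPM in WTCM libraries (log2 fold change 0.38, adjusted p = 9.2e-06).

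Inflammatory genes outside the interferon response rose as well. Nos2 (ENSMUSG00000020826, chromosome 11, 78920787 to 78960254), the inducible nitric oxide synthase, stood at 68.7, 70.8 and 64.9 CPM in APCCM and at 6.91, 8.25 and 9.71 CPM in WTCM libraries (log2 fold change 3.02, SE 0.09, adjusted p = 1.9e-15). The lowest APCCM library was several times above the highest WTCM library. Duox2, an oxidase that releases hydrogen peroxide at the cell surface, stood at 21.5, 27.5 and 26.0 CPM in APCCM and at 8.15, 7.76 and 7.71 CPM in WTCM libraries (log2 fold change 1.64, SE 0.10, adjusted p = 2.2e-10). Its maturation factor Duoxa2 stood at 4.38, 6.23 and 4.54 CPM in APCCM and at 0.896, 0.830 and 1.38 CPM in WTCM libraries (log2 fold change 2.25, SE 0.23, adjusted p = 4e-07). Noxa1, the activating subunit of the epithelial NADPH oxidase, averaged 55.7 ± 1.84 CPM in APCCM and 27.2 ± 1.62 CPM in WTCM libraries (log2 fold change 1.01, adjusted p = 1.9e-10). In all, 7 of 9 tested nitric oxide and superoxide enzymes rose and 0 fell, with a median log2 fold change of 0.63.

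**Figure D3:**
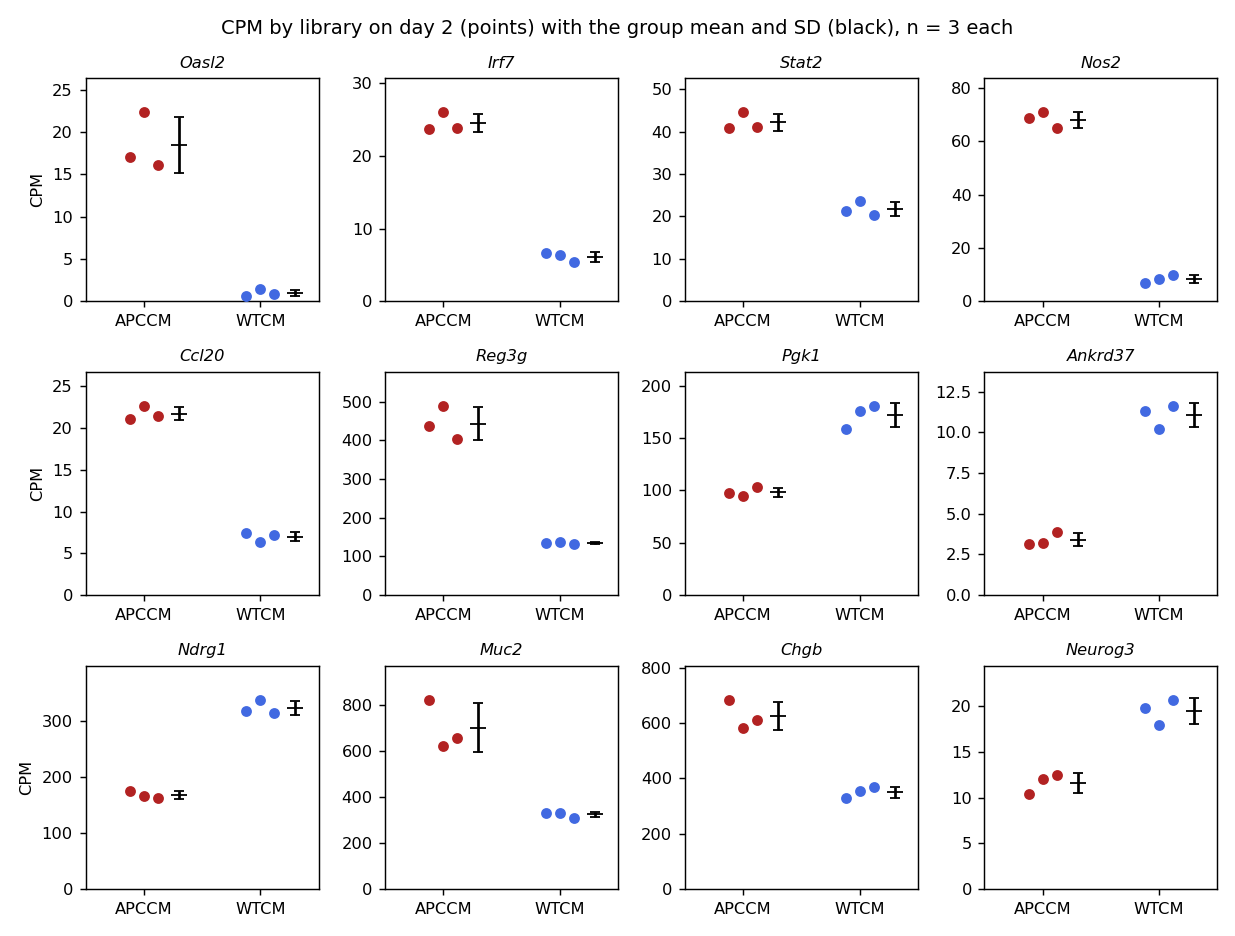
CPM of 12 genes in each day 2 library (points, linear axes from 0), APCCM left and WTCM right, with the mean and SD in black (n = 3 each). Pgk1, Ankrd37, Ndrg1 and Neurog3 are the 4 that were lower in APCCM. No APCCM library overlaps a WTCM library in any of the 12 panels, which follows largely from the choice of genes. All 12 genes were called, and 95.8% of all called genes do not overlap. For Oasl2, Irf7, Nos2 and Ankrd37 lack of overlap was a condition of their rank among the largest changes.

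NF-kB target promoters are shown by a chemokine and the inhibitor of the pathway, again as RefSeq windows of GRCm38.p6 on the gene's strand. Both are examples that hold a match, and a window without a match is not printed. Capitals mark the match to the kappaB site, searched by its consensus on both strands.
Ccl20, chr1:83116516-83116815, plus strand: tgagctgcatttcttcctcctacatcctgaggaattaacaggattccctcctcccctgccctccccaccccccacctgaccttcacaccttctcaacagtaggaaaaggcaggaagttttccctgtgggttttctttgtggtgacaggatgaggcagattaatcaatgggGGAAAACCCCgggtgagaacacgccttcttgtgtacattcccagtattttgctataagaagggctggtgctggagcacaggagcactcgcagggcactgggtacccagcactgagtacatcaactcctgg
Nfkbia, chr12:55492598-55492897, minus strand: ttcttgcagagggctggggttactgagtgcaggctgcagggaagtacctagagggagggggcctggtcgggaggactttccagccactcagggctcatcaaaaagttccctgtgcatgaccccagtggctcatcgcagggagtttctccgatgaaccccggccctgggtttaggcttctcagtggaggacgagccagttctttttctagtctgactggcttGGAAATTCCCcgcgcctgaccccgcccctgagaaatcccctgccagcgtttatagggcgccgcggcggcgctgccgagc
The match began 80 bases before the Ccl20 start and 29 bases before the Nfkbia start. Of the NF-kB list, 14 of 17 tested genes had an entry, and 11 of their 17 windows held a match (64.7%), against 8.46% of all windows. The Tnf window held none, and Nos2 is named without a window.

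Of 17 tested NF-kB factors and feedback genes, 11 rose and 0 fell, with a median log2 fold change of 0.25. Nfkbia, which holds NF-kB in the cytoplasm, stood at 71.5, 81.7 and 81.0 CPM in APCCM and at 46.4, 44.4 and 47.3 CPM in WTCM libraries (log2 fold change 0.74, SE 0.06, adjusted p = 7.9e-09). Tnfaip3, a deubiquitinase that ends the signal, averaged 38.7 ± 2.78 CPM in APCCM and 21.9 ± 0.721 CPM in WTCM libraries (log2 fold change 0.80, adjusted p = 4.2e-08). The nuclease gene Zc3h12a averaged 48.2 ± 3.03 CPM in APCCM and 29.8 ± 0.190 CPM in WTCM libraries (log2 fold change 0.67, adjusted p = 6.6e-08). The rises lay in targets and inhibitors more than in the factors that carry the canonical signal. Rela stood at 48.3 to 51.6 CPM in APCCM and 48.9 to 53.9 CPM in WTCM libraries (log2 fold change -0.07, adjusted p = 0.41), and Nfkb1 at 129.6 to 135 CPM in APCCM and 132 to 136 CPM in WTCM libraries (log2 fold change -0.04, adjusted p = 0.56). Nfkb2, the factor of the non-canonical arm, averaged 44.8 ± 2.64 CPM in APCCM and 32.7 ± 1.32 CPM in WTCM libraries (log2 fold change 0.43, adjusted p = 4.1e-05).

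Of 12 tested cytokines and chemokines, 8 rose and Ccl25 fell. Tnf, the inflammatory cytokine, stood at 7.48, 8.62 and 7.64 CPM in APCCM and at 1.79, 1.66 and 1.67 CPM in WTCM libraries (log2 fold change 2.18, SE 0.16, adjusted p = 4.3e-09). Ccl20, which draws lymphocytes and dendritic cells to the epithelium, stood at 21.1, 22.6 and 21.4 CPM in APCCM and at 7.42, 6.39 and 7.19 CPM in WTCM libraries (log2 fold change 1.60, SE 0.09, adjusted p = 1.3e-10). Cxcl16, a membrane-bound chemokine, averaged 40.1 ± 2.34 CPM in APCCM and 15.3 ± 2.15 CPM in WTCM libraries (log2 fold change 1.36, adjusted p = 3.8e-10). All 3 separated the groups without overlap. The other 13 members were too low to test, among them Ccl2, Ccl5, Il1b, Il6 and Il23a at 0 counts in all 6 libraries.

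Antimicrobial and mucosal defence genes rose in 8 of 11 tested and fell in 1. Reg3g, a lectin that kills Gram-positive bacteria, stood at 436, 488 and 404 CPM in APCCM and at 134, 138 and 131 CPM in WTCM libraries (log2 fold change 1.70, SE 0.06, adjusted p = 7.3e-14). Reg4 averaged 494 ± 23.2 CPM in APCCM and 194 ± 10.4 CPM in WTCM libraries (log2 fold change 1.32, adjusted p = 3e-13). Reg3a of the same family was the member that fell, at 32.0, 29.9 and 24.7 CPM in APCCM and 49.5, 59.8 and 51.7 CPM in WTCM libraries (log2 fold change -0.92, SE 0.08, adjusted p = 7.3e-08). The family thus moved in both directions. Of 19 tested genes of pyroptosis, necroptosis and apoptosis, 5 rose and 4 fell. Casp4, a sensor of cytosolic lipopolysaccharide, averaged 51.0 ± 2.20 CPM in APCCM and 27.4 ± 2.80 CPM in WTCM libraries (log2 fold change 0.88, adjusted p = 6.2e-09). Its substrate Gsdmd, which forms membrane pores, averaged 89.1 ± 2.23 CPM in APCCM and 50.8 ± 0.880 CPM in WTCM libraries (log2 fold change 0.79, adjusted p = 3.2e-10). Ripk3, a kinase of necroptosis, averaged 59.6 ± 2.90 CPM in APCCM and 43.3 ± 1.03 CPM in WTCM libraries (log2 fold change 0.44, adjusted p = 6.3e-06). Pycard, the inflammasome adaptor ASC, fell to 101 ± 3.26 CPM in APCCM, against 130.5 ± 1.90 CPM in WTCM libraries (log2 fold change -0.39, adjusted p = 2.6e-06).

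Genes induced by low oxygen were lower in APCCM. For the promoters the hypoxia response element core ACGTG was searched on both strands, and its reverse reads CACGT. Capitals mark the matches in 3 RefSeq windows of GRCm38.p6, and in the Bnip3 window overlapping matches on both strands form 1 run.
Pgk1, chrX:106186850-106187149, plus strand: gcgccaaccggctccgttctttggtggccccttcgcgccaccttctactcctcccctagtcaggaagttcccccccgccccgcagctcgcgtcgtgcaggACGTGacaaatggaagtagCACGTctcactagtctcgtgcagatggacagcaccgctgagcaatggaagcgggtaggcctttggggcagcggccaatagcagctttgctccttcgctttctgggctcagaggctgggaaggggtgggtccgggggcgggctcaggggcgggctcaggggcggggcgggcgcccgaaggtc
Ankrd37, chr8:45999801-46000100, minus strand: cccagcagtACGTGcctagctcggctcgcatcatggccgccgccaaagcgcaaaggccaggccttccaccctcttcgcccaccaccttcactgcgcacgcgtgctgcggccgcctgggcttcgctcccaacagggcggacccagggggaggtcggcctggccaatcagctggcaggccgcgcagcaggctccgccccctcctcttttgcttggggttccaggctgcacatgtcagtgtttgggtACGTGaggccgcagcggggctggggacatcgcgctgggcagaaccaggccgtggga
Bnip3, chr7:138909457-138909756, minus strand: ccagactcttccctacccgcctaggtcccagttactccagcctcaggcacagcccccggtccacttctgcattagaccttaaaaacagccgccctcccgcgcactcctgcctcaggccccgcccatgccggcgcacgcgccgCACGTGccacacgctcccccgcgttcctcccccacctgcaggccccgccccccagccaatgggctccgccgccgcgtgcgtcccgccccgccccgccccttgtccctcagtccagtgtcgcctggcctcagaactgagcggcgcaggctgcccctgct
Over both hypoxia lists, 34 of 37 tested genes had an entry, and 26 of their 49 windows held a match (53.1%), against 19.6% of all windows.

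Of 19 tested glycolysis enzymes and carriers, 15 fell and 0 rose, with a median log2 fold change of -0.45. They spanned the pathway, namely Slc2a1, Gpi1, Pfkl, Pfkp, Aldoa, Aldoc, Tpi1, Gapdh, Pgk1, Pgam1, Eno1, Pkm, Ldha, Slc16a3 and Pdk1. Pgk1 (ENSMUSG00000062070, chromosome X, 106187100 to 106203699) stood at 97.0, 94.7 and 103 CPM in APCCM and at 159, 176 and 180.3 CPM in WTCM libraries (log2 fold change -0.83, SE 0.05, adjusted p = 1.8e-10). Slc16a3, a lactate exporter, stood at 6.84, 6.84 and 8.04 CPM in APCCM and at 20.0, 18.8 and 19.5 CPM in WTCM libraries (log2 fold change -1.44, SE 0.10, adjusted p = 6.9e-10). No library overlapped between the groups. Ldha, lactate dehydrogenase A, averaged 706 ± 7.01 CPM in APCCM and 1016 ± 15.1 CPM in WTCM libraries (log2 fold change -0.55, adjusted p = 4.7e-09), and Aldoa, an aldolase, 458 ± 16.1 CPM in APCCM and 762 ± 30.7 CPM in WTCM libraries (log2 fold change -0.76, adjusted p = 1.2e-10). Hk2, a hexokinase, did not pass the test at 73.9 to 76.8 CPM in APCCM and 69.9 to 82.3 CPM in WTCM libraries (adjusted p = 0.76). Some of these genes are known to have processed pseudogenes that can take reads away, so their CPM may understate the level.

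Among the other hypoxia-induced genes 16 of 19 fell and 0 rose, with a median log2 fold change of -0.50. Ankrd37 (ENSMUSG00000050914) stood at 3.15, 3.17 and 3.85 CPM in APCCM and at 11.3, 10.2 and 11.6 CPM in WTCM libraries (log2 fold change -1.73, SE 0.13, adjusted p = 4.8e-09). Bnip3, which directs mitochondria to autophagy, stood at 3.94, 3.50 and 3.80 CPM in APCCM and at 9.77, 12.1 and 13.9 CPM in WTCM libraries (log2 fold change -1.68, SE 0.14, adjusted p = 2e-08). Both were among the 12 largest falls. Ndrg1 averaged 168 ± 6.62 CPM in APCCM and 324 ± 12.8 CPM in WTCM libraries (log2 fold change -0.97, adjusted p = 6.8e-12), and Car9, a carbonic anhydrase of hypoxic cells, 80.8 ± 4.11 CPM in APCCM and 118 ± 6.57 CPM in WTCM libraries (log2 fold change -0.57, adjusted p = 4e-08). Of the factors and their hydroxylases, 1 of 9 rose and 4 fell. Hif1a stood at 169 to 183 CPM in APCCM and 179 to 186 CPM in WTCM libraries (log2 fold change -0.07, adjusted p = 0.31), while Epas1, which encodes its paralogue, averaged 46.3 ± 2.57 CPM in APCCM and 33.8 ± 1.61 CPM in WTCM libraries (log2 fold change 0.43, adjusted p = 4.8e-05). The oxygen-sensing hydroxylase genes Egln3 and Egln1 fell, by 0.67 and 0.30 on the log2 scale (adjusted p = 1.2e-07 and 0.00033).

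Products of secretory cells were higher. Of 13 goblet cell genes 9 rose and 0 fell, and Muc2 (ENSMUSG00000025515, chromosome 7, 141690340 to 141754693), the main mucin of intestinal mucus, stood at 823, 624 and 657 CPM in APCCM and at 332, 332 and 310.3 CPM in WTCM libraries (log2 fold change 1.09, SE 0.07, adjusted p = 7.3e-10). Clca1, a metalloprotease that processes mucus, stood at 222, 247 and 234 CPM in APCCM and at 82.7, 77.0 and 65.3 CPM in WTCM libraries (log2 fold change 1.62, SE 0.07, adjusted p = 9.6e-13). Zg16, a lectin of the mucus layer, averaged 329 ± 18.3 CPM in APCCM and 117 ± 11.5 CPM in WTCM libraries (log2 fold change 1.47, adjusted p = 1.4e-12). The factors of the lineage did not pass the test, with Atoh1 at 17.6 to 21.9 CPM in APCCM and 16.8 to 19.1 CPM in WTCM libraries (adjusted p = 0.61) and Spdef at 22.9 to 25.7 CPM in APCCM and 22.0 to 23.9 CPM in WTCM libraries (adjusted p = 0.83). Among Paneth cell genes 7 of 15 tested rose and 0 fell. Mmp7, which activates pro-defensins in mice, averaged 111 ± 4.44 CPM in APCCM and 51.7 ± 0.806 CPM in WTCM libraries (log2 fold change 1.08, adjusted p = 2.1e-12). Lyz1, Paneth cell lysozyme, averaged 2237 ± 66.4 CPM in APCCM and 1394 ± 82.4 CPM in WTCM libraries (log2 fold change 0.66, adjusted p = 1.6e-09), and Ang4, a bactericidal ribonuclease, 333 ± 8.53 CPM in APCCM and 204 ± 2.65 CPM in WTCM libraries (log2 fold change 0.68, adjusted p = 5e-10). The 7 include Defa17, Defa24 and Defa30, and that family is uncertain because its copies share sequence.

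Hormones of enteroendocrine cells rose while the factor that founds the lineage fell. Of 19 tested genes 12 were higher and 2 lower, with a median log2 fold change of 0.90. Chgb, a granin of secretory granules, stood at 684, 582 and 613 CPM in APCCM and at 329, 353 and 368 CPM in WTCM libraries (log2 fold change 0.82, SE 0.05, adjusted p = 6.4e-10). Tph1, the enzyme that starts serotonin synthesis, stood at 31.4, 31.0 and 30.7 CPM in APCCM and at 14.2, 15.8 and 16.9 CPM in WTCM libraries (log2 fold change 0.97, SE 0.07, adjusted p = 4.7e-09). Tac1, the precursor of substance P, averaged 17.6 ± 1.57 CPM in APCCM and 7.31 ± 1.24 CPM in WTCM libraries (log2 fold change 1.25, adjusted p = 5.7e-08). Gcg, the precursor of glucagon-like peptides and chosen after its values were seen, stood at 4.87, 7.95 and 6.31 CPM in APCCM and at 2.09, 1.46 and 1.52 CPM in WTCM libraries (log2 fold change 1.87, adjusted p = 1.4e-06). Against these, Neurog3 (ENSMUSG00000044312, chromosome 10, 62133090 to 62134763), the transient factor of endocrine progenitors, stood at 10.4, 12 and 12.5 CPM in APCCM and at 19.8, 18.0 and 20.7 CPM in WTCM libraries (log2 fold change -0.77, SE 0.09, adjusted p = 2.7e-06). Pax4 was the other member called lower (log2 fold change -0.61, adjusted p = 0.046), and with 1 library left out its adjusted p lay between 0.047 and 0.16, above 0.05 in 5 of 6 such fits. Of 15 tested Notch pathway and secretory fate genes, a list that includes Neurog3, 0 rose and 5 fell. Notch1 averaged 132 ± 13.4 CPM in APCCM and 162 ± 3.23 CPM in WTCM libraries (log2 fold change -0.31, adjusted p = 0.00048), and its target Hes1 64.6 ± 2.37 CPM in APCCM and 76.3 ± 1.33 CPM in WTCM libraries (log2 fold change -0.26, adjusted p = 0.00050). Tuft cell genes were called higher in 3 of 10, which fell to 1 without APCCM replicate 3, without WTCM replicate 1 or with DESeq2, and Dclk1, their microtubule-associated kinase, averaged 16.3 ± 1.87 CPM in APCCM and 8.48 ± 1.48 CPM in WTCM libraries (log2 fold change 0.93, adjusted p = 5.2e-06).

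Some Wnt targets and stem cell genes fell in APCCM, while most members of both lists did not. Of 21 tested Wnt targets 8 fell and 3 rose, against 11.2% of all tested genes lower and 12% higher. The median log2 fold change of the list was -0.03, near the 0.004 of all genes. On day 4, 11 of 22 tested Wnt targets were lower and 1 higher, with a median of -0.46. Lgr5, the receptor for R-spondin on stem cells, stood at 101, 97.9 and 109 CPM in APCCM and at 129, 157 and 154 CPM in WTCM libraries (log2 fold change -0.53, SE 0.06, adjusted p = 1.1e-06). Axin2, a negative feedback gene, stood at 269.8, 260.4 and 249 CPM in APCCM and at 309.8, 337 and 334 CPM in WTCM libraries (log2 fold change -0.35, SE 0.05, adjusted p = 1.1e-05). Nkd1, a further feedback inhibitor, stood at 1.48, 1.5 and 1.68 CPM in APCCM and at 3.11, 3.86 and 3.43 CPM in WTCM libraries (log2 fold change -1.17, SE 0.20, adjusted p = 0.00025). For these 3 genes every APCCM library lay below every WTCM library, opposite to the direction in untreated mutants, where Nkd1 stood at 547 and 668 CPM. Tnfrsf19 averaged 6.67 ± 0.719 CPM in APCCM and 12.5 ± 1.05 CPM in WTCM libraries (log2 fold change -0.92, adjusted p = 3.5e-06). Sp5 stood at 0.888 to 1.17 CPM in APCCM and 1.33 to 1.81 CPM in WTCM libraries without passing the test (log2 fold change -0.65, adjusted p = 0.088). Ccnd1, cyclin D1 and a target of many pathways, rose, at 221 ± 10.7 CPM in APCCM and 172 ± 3.70 CPM in WTCM libraries (log2 fold change 0.34, adjusted p = 2e-05). Of 18 stem cell genes 8 fell and 3 rose, and the 3 became 1 without APCCM replicate 3, without WTCM replicate 1 or in the fit of all 16 libraries. Olfm4 averaged 1903 ± 70.1 CPM in APCCM and 2546 ± 143 CPM in WTCM libraries (log2 fold change -0.44, adjusted p = 4.7e-07). Ascl2, the stem cell factor, was called lower (log2 fold change -0.26, adjusted p = 0.022), but not without APCCM replicate 3 (adjusted p = 0.096), WTCM replicate 1 (0.082) or WTCM replicate 2 (0.053). In untreated organoids the same list of Wnt targets had 21 of 22 tested members higher in mutants and 0 lower, against 32.4% of 16510 genes higher and 30.1% lower, with a median log2 fold change of 1.94.

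Absorptive enterocyte genes did not move as a block, with 7 of 25 higher, 9 lower and a median log2 fold change of -0.10. Anpep, a brush border aminopeptidase, stood at 809, 853 and 764 CPM in APCCM and at 410.0, 485 and 440.3 CPM in WTCM libraries (log2 fold change 0.84, SE 0.05, adjusted p = 5.8e-10). Apolipoprotein genes went both ways, with Apoa1 at 613 ± 41.5 CPM in APCCM and 399 ± 26.5 CPM in WTCM libraries (log2 fold change 0.60, adjusted p = 1e-07), and Apoa4 at 289 ± 23.5 CPM in APCCM and 423 ± 20.0 CPM in WTCM libraries (log2 fold change -0.57, adjusted p = 1.6e-07). Mep1b, a meprin subunit, rose (log2 fold change 0.79, adjusted p = 2.3e-09), while its partner Mep1a was among the genes that fell. Retinoid genes held some of the largest changes. Isx (ENSMUSG00000031621, chromosome 8, 74873173 to 74893506), a homeobox factor known to repress the carotenoid genes Bco1 and Scarb1 in the gut, stood at 104, 110.3 and 101 CPM in APCCM and at 32.6, 27.0 and 29.8 CPM in WTCM libraries (log2 fold change 1.79, SE 0.07, adjusted p = 1.1e-13). Bco1, which cleaves beta-carotene to retinal, stood at 3.00, 3.06 and 2.66 CPM in APCCM and at 8.83, 8.25 and 10.6 CPM in WTCM libraries (log2 fold change -1.69, SE 0.15, adjusted p = 3.7e-08). Scarb1, which takes up carotenoids, averaged 40.6 ± 0.918 CPM in APCCM and 53.1 ± 1.31 CPM in WTCM libraries (log2 fold change -0.41, adjusted p = 1.5e-05). Over the retinoid and xenobiotic list 3 of 18 tested genes rose and 7 fell, and Cyp1a1, the classic target of the aryl hydrocarbon receptor, was among the 3 at 3.64, 3.11 and 3.40 CPM in APCCM and 1.41, 1.12 and 1.00 CPM in WTCM libraries (log2 fold change 1.49, SE 0.22, adjusted p = 4.8e-05).

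Genes of fetal-like and regenerating epithelium rose in 9 of 13 tested and fell in 0, with a median log2 fold change of 0.81. Ly6a, a surface protein of regenerating crypts, stood at 10.8, 16.8 and 15.5 CPM in APCCM and at 6.31, 4.34 and 3.95 CPM in WTCM libraries (log2 fold change 1.52, SE 0.17, adjusted p = 1.1e-06). Cldn4, a tight junction protein, averaged 70.0 ± 4.86 CPM in APCCM and 34.4 ± 5.59 CPM in WTCM libraries (log2 fold change 1.00, adjusted p = 3.4e-08). Msln, mesothelin, averaged 51.7 ± 4.21 CPM in APCCM and 28.9 ± 4.98 CPM in WTCM libraries (log2 fold change 0.81, adjusted p = 1.7e-06). YAP target genes overlap that programme, and 6 of 11 tested rose and 0 fell. Areg (amphiregulin), a YAP target that binds the EGF receptor, stood at 78.6, 85.7 and 82.8 CPM in APCCM and at 34.8, 30.9 and 30.0 CPM in WTCM libraries (log2 fold change 1.34, SE 0.06, adjusted p = 4e-12).

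Of the EGF family 4 of 12 tested genes rose and 1 fell. Besides Areg, the ligands Btc and Hbegf rose, by a log2 fold change of 0.68 (adjusted p = 5.2e-06) and 0.54 (adjusted p = 0.00045), and Nrg4 fell to 2.81 ± 0.0929 CPM in APCCM, against 5.18 ± 0.608 CPM in WTCM libraries (log2 fold change -0.90, adjusted p = 0.00047). Their receptor Egfr stood at 74.1 to 79.6 CPM in APCCM and 74.6 to 77.2 CPM in WTCM libraries (log2 fold change 0.01, adjusted p = 0.95). Of 21 immediate early and MAPK feedback genes 9 rose and 1 fell. Dusp6, the phosphatase that limits ERK, averaged 34.5 ± 2.96 CPM in APCCM and 18.7 ± 2.21 CPM in WTCM libraries (log2 fold change 0.86, adjusted p = 2.2e-07). Fos averaged 22.6 ± 2.36 CPM in APCCM and 14.0 ± 1.61 CPM in WTCM libraries (log2 fold change 0.66, adjusted p = 4.9e-05), and Egr1 25.3 ± 0.0509 CPM in APCCM and 17.1 ± 1.78 CPM in WTCM libraries (log2 fold change 0.54, adjusted p = 5.5e-05). The 1 member called lower lost its call without any of 5 of the 6 libraries, all but APCCM replicate 2. In the BMP and TGF-beta pathway 6 of 17 rose and 3 fell. The ligand Tgfb1 averaged 11.4 ± 1.16 CPM in APCCM and 5.53 ± 0.816 CPM in WTCM libraries (log2 fold change 1.02, adjusted p = 5.8e-06). Tgfbi, a target of that ligand, averaged 17.4 ± 1.63 CPM in APCCM and 7.06 ± 1.16 CPM in WTCM libraries (log2 fold change 1.29, adjusted p = 5.1e-08), and the receptor gene Tgfbr2 183 ± 8.63 CPM in APCCM and 138 ± 5.78 CPM in WTCM libraries (log2 fold change 0.39, adjusted p = 7.9e-06).

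p53 target genes rose in 13 of 20 and fell in 0, with a median log2 fold change of 0.34. Eda2r, a receptor of the TNF family, stood at 43.2, 37.4 and 43.3 CPM in APCCM and at 23.4, 22.6 and 22.7 CPM in WTCM libraries (log2 fold change 0.83, SE 0.07, adjusted p = 1.8e-08). Zmat3, an RNA-binding protein, averaged 181 ± 8.53 CPM in APCCM and 116 ± 7.36 CPM in WTCM libraries (log2 fold change 0.62, adjusted p = 3.2e-08). Ccng1, a cyclin induced by p53, stood at 235, 245 and 261 CPM in APCCM and 174, 169 and 162 CPM in WTCM libraries (log2 fold change 0.53, adjusted p = 8.3e-08). Every tested member had a positive log2 fold change, between 0.03 and 0.88. Cell cycle genes were called higher in 8 of 22 and lower in 0, with Cenpf, a kinetochore protein, at 179 ± 7.77 CPM in APCCM and 139.7 ± 7.34 CPM in WTCM libraries (log2 fold change 0.34, adjusted p = 2e-05). That count fell to 3 without WTCM replicate 3 and to 5 without APCCM replicate 2 or WTCM replicate 2. DNA replication genes were called higher in 7 of 24, and in 2 to 4 without WTCM replicate 3, WTCM replicate 2 or APCCM replicate 3.

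Further large changes were in genes of varied function that the lists do not hold. Vnn1, a pantetheinase of the brush border, stood at 22.2, 30.5 and 27.6 CPM in APCCM and at 7.04, 5.91 and 5.19 CPM in WTCM libraries (log2 fold change 2.11, SE 0.12, adjusted p = 1.2e-10). Chrna2, a nicotinic acetylcholine receptor subunit, stood at 7.43, 10.2 and 7.45 CPM in APCCM and at 1.32, 2.68 and 2.14 CPM in WTCM libraries (log2 fold change 2.02, SE 0.20, adjusted p = 2.4e-07). Ifit1bl1, a relative of Ifit1, averaged 16.9 ± 1.13 CPM in APCCM and 2.70 ± 0.419 CPM in WTCM libraries (log2 fold change 2.63, adjusted p = 6e-12). On the lower side Upk3b, a uroplakin, had the largest fall among the ranked genes, which average at least 5 CPM in the higher group. It stood at 1.03, 0.389 and 0.592 CPM in APCCM and at 5.37, 5.17 and 7.29 CPM in WTCM libraries (log2 fold change -3.13, SE 0.26, adjusted p = 1.8e-08). Ctrb1, a chymotrypsinogen, averaged 3.95 ± 0.477 CPM in APCCM and 14.6 ± 0.445 CPM in WTCM libraries (log2 fold change -1.91, adjusted p = 3.1e-10), and Scin, an actin-severing protein, 4.15 ± 0.789 CPM in APCCM and 13.3 ± 2.39 CPM in WTCM libraries (log2 fold change -1.71, adjusted p = 3.7e-08). The rest of the 12 largest falls, besides genes named above, were Cyp2d34, Adh4, Vwa2, Slc28a3 and Gpr155, with log2 fold changes from -1.58 to -1.26. Adh4, an alcohol dehydrogenase, averaged 12.5 ± 0.368 CPM in APCCM and 33.6 ± 1.42 CPM in WTCM libraries (adjusted p = 9.8e-12).

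The same comparison exists on day 4 in other libraries, and the difference between days was tested in a fit of the 12 CM libraries. On day 4, 3253 of 14970 genes (21.7%) were called, 1630 higher (10.9%) and 1623 lower (10.8%). Of the 3331 genes called on day 2, 1642 (49.3%) were called on day 4 in the same direction and 42 (1.26%) in the opposite direction. The difference between APCCM and WTCM itself differed between days at 568 of 14970 genes (3.79%), with the day 2 value above the day 4 value at 332 (2.22%) and below it at 236 (1.58%). Nos2 had the smallest p, at 17.3, 15.7 and 21.2 CPM in APCCM and 12.5, 11.7 and 9.26 CPM in WTCM libraries on day 4 (log2 fold change 0.68), so that the day 2 difference exceeded the day 4 one by 2.34 on the log2 scale (SE 0.17, adjusted p = 1.6e-08). Ccl20 did not separate the groups on day 4, at 15.2, 12.5 and 15.8 CPM in APCCM and 14.9, 14.8 and 12.9 CPM in WTCM libraries. Oasl2 did, at 7.70, 13.6 and 8.61 CPM in APCCM and 0.730, 0.508 and 0.274 CPM in WTCM libraries on day 4 (difference between days -0.12, adjusted p = 0.95).

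The lists differed in how far they changed with the day. The day 2 difference lay above the day 4 difference for 6 of 9 nitric oxide and superoxide enzymes, 7 of 17 NF-kB genes, 6 of 13 cytokines, 10 of 15 Paneth cell genes and 6 of 13 goblet cell genes. It lay below the day 4 difference for 10 of 19 glycolysis genes and 11 of 19 other hypoxia-induced genes. Of 26 interferon-induced effectors it passed the test for 1, Samhd1, and for 0 of 10 interferon transcription factors, although a missed threshold does not show equal effects on both days. The median day 2 minus day 4 difference of the effectors was 0.37 on the log2 scale. It was 1.16 for Ifit1 (adjusted p = 0.16), 1.08 for Ddx60 (adjusted p = 0.073) and -0.12 for Oasl2. Ifit1bl1, which is outside the list, gave 1.96 (adjusted p = 2.7e-05). Stem cell genes were lower in 15 of 18 on day 4, against 8 of 18 on day 2, and the difference between days passed the test for 8. Among the genes named here, Zc3h12a, Egln3, Cyp2c55, Ces2a and Defa17 were called in opposite directions on both days. Zc3h12a, higher in APCCM on day 2, stood at 44.9, 46.1 and 49.2 CPM in APCCM and 51.3, 50.9 and 50.8 CPM in WTCM libraries on day 4 (log2 fold change -0.17, adjusted p = 0.023). Egln3 stood at 28.8, 25.8 and 28.0 CPM in APCCM and 20.4, 22.7 and 19.7 CPM in WTCM libraries on day 4 (log2 fold change 0.36, adjusted p = 0.00037). Ces2a, a carboxylesterase, stood at 309, 381 and 315 CPM in APCCM and 178, 218 and 220.4 CPM in WTCM libraries on day 4 (log2 fold change 0.67, adjusted p = 5.3e-07), against 193, 199 and 169.6 CPM in APCCM and 262, 248 and 244 CPM in WTCM libraries on day 2 (log2 fold change -0.45, adjusted p = 7.5e-06).

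**Figure D4:**
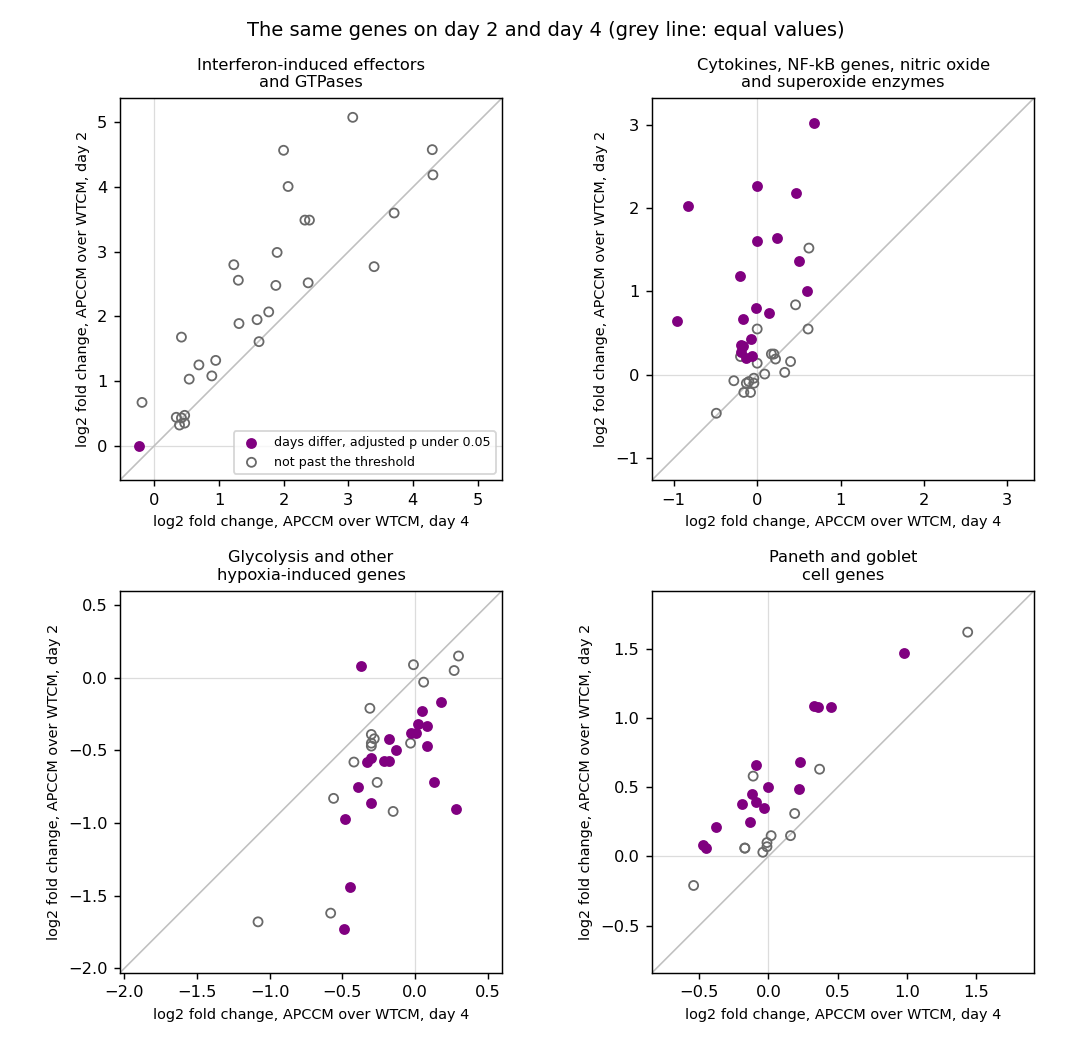
Log2 fold change of APCCM over WTCM on day 2 (vertical) against day 4 (horizontal) for tested members of 9 gene lists in 4 panels, both from the fit of 12 CM libraries, filled where the days differed at an adjusted p under 0.05 and with a grey line of equal values. Most interferon genes lie near or above the line at positive values on both days, while most inflammatory genes lie above it and most hypoxia-induced genes below it.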

How the data were processed

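Libraries were made after ribosomal RNA depletion, per the labels' protocols. The tools named are HTSeq 0.6.1p1, HISAT2 2.1.0 and Trimmomatic 0.36, with build GRCm38, per the submitters' processing notes. The authors deposited raw read counts, 1 table per library, with 46078 genes and 5 summary lines of htseq-count. These lines entered neither library sizes nor tests. Whether counting used the strand is not given in the sources used here. Genes overlapping in antisense may therefore share reads. Multiply aligned reads, 26.5 to 28.4% in the 6 libraries, stand in no gene. Symbols came from GENCODE M21 and covered 98.2% of the genes, and promoter windows came from RefSeq on GRCm38.p6.

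CPM were computed from the deposited counts over a library's gene total, with no scaling factor. The main test was edgeR's quasi-likelihood test (edgeR 4.0.16, limma 3.58.1, R 4.3.3) on the 6 libraries, with TMM factors (0.976 to 1.02), the filterByExpr filter, which kept 14371 genes, and Benjamini-Hochberg adjustment over all of them at 0.05. The biological coefficient of variation was 4.93% with 4 residual degrees of freedom. The difference between days was fitted on 12 libraries, and untreated Wnt targets on all 16. The same steps were tested on simulated counts. Alternatives were other fits, DESeq2 1.42.0, other scaling, other filters, a 2-fold threshold, a replicate block and leaving out each library.

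Named genes were the 12 largest rises and the 12 largest falls past the threshold, and a fixed set of Wnt genes. Up to 4 members of each list with the smallest p and up to 6 genes with the smallest p between days were added. The largest rises and falls had to average at least 5 CPM in the higher group, with no overlap between libraries of the groups. Genes with no symbol, a predicted or clone-based name or a pseudogene label were left out of that ranking. Some members of the lists are counted but not reported here by name. Genes named without passing the test were added to show components of a pathway. The libraries, the 46 gene lists (767 genes) and the rules were chosen with earlier results of these data known. Sums of a lineage's markers and counts of called list members are descriptions with no test of their own. Groups of 3 limit precision to the spread between these libraries.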

Additional observations from a re-analysis of the deposited data

Results flagged for a closer look

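The difference between APCCM and WTCM differed between day 2 and day 4 for 56 of the genes named here, by the interaction term of edgeR's quasi-likelihood test on 12 libraries with adjustment over 14970 genes. Their adjusted p lay between 1.6e-08 for Nos2 and 0.047 for Zg16. Values below are the day 2 log2 difference minus the day 4 log2 difference, and no explanation was tested.

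Among inflammatory genes the value was 2.34 for Nos2, 2.26 for Duoxa2, 1.40 for Duox2 and 0.42 for Noxa1. It was 1.72 for Tnf, 1.61 for Ccl20 and 0.87 for Cxcl16. NF-kB feedback genes stood at 0.60 for Nfkbia, 0.80 for Tnfaip3, 0.84 for Zc3h12a and 0.51 for Nfkb2. Samhd1 gave 0.23, Casp4 0.57, Pycard -0.41, Ifit1bl1 1.96 and Chrna2 1.29.

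Hypoxia-induced genes lay below 0, at -1.03 for Egln3, -0.37 for Aldoa, -0.25 for Ldha and -1 for Slc16a3. Further glycolysis genes gave -0.85 for Gapdh, -0.39 for Slc2a1, -0.36 for Pfkl, -0.36 for Aldoc, -0.27 for Pfkp and -0.25 for Tpi1. Ndrg1 gave -0.48, Ankrd37 -1.23 and Car9 -0.38. In metabolism the value was -0.29 for Insig1, -0.73 for Trib3 and -0.42 for Adh4. Slc28a3 gave -1.27, Cyp2c55 -0.88 and Ces2a -1.11.

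Secretory genes lay above 0, at 0.76 for Muc2, 0.50 for Zg16 and 0.64 for Bcas1. The defensin genes Defa17, Defa24 and Defa30 gave 0.57, 0.49 and 0.27. Lyz1 gave 0.75, Mmp7 0.72, Ang4 0.45, Chgb 0.36 and Tph1 0.48. Among other epithelial genes the value was 0.88 for Cldn4, 0.51 for Areg, 0.46 for Btc, 0.33 for Tgfbr2 and 0.68 for Pmaip1. For genes that were lower in APCCM on both days, with the larger fall on day 4, it was 0.27 for Axin2, 0.61 for Olfm4, 0.49 for Apoa4, 0.82 for Bco1 and 0.90 for Scin.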

How the results depend on the processing

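The count of 3331 called genes was 2689 with DESeq2, 3321 with a filter of 1 CPM in 3 libraries, 3501 with no filter, 3341 with median-ratio size factors, 3239 with library totals alone, 3607 in the fit of 12 libraries, 2755 in the fit of all 16 and 3416 without RNAs that lack a poly(A) tail and mitochondrial genes. The share called higher was 51.8%, and 60.5% with library totals alone. With a 2-fold threshold 263 genes remained, 186 higher and 77 lower. With 1 library left out the count lay between 2320 and 3362, with 1198 to 1741 higher and 1081 to 1621 lower. For the difference between days, 568 genes became 633 with DESeq2, 569 with the CPM filter and 400 to 564 with 1 library left out, with 229 to 311 higher and 166 to 284 lower. Untreated Wnt targets called higher numbered 20 to 21 with 1 library left out, and 0 were lower.

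Replicate numbers did not pair the samples, since deviations of equally numbered libraries correlated at 0.0195, -0.177 and 0.106 over 10408 genes. With a replicate block 3231 genes were called on day 2, of which 3148 were shared, and 574 between days. Libraries of a group differed beyond sampling noise, with a chi-square of 3.49 to 6.55 per degree of freedom.

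Among named genes the call was lost under DESeq2, the fit of 12, the fit of all 16 or a left-out library for Ascl2, and under DESeq2, library totals alone or 5 left-out libraries for Pax4, while Ifnar2 passed in the fit of 12 and with library totals alone. Irf2 lost its call under DESeq2, library totals alone, the replicate block or 5 left-out libraries, Ifngr1 without 3 libraries and Mavs without 2, all named in the report. Ifit2 passed in the fit of 12, with no filter, with the replicate block, without RNAs that lack a poly(A) tail and mitochondrial genes, or without APCCM replicate 1, APCCM replicate 2 or WTCM replicate 3. The other tested genes named in the text kept their direction where called, and their side of the threshold, in the alternatives run. List counts stayed within 1.5 times the main count in 852 of 930 cases, and the exceptions on lists described in the text are given there; the cause was not tested. Depth limits weak genes, as 3 counts came to 0.128 to 0.167 CPM in a library.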

Other observations

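Cholesterol synthesis genes were lower in APCCM in 11 of 21 and higher in 0, with a median log2 fold change of -0.15, and the count was 7 without APCCM replicate 1 or WTCM replicate 3. Insig1, which holds the sterol sensor in the endoplasmic reticulum, stood at 160.3, 178 and 192 CPM in APCCM and at 229, 243 and 252 CPM in WTCM libraries (log2 fold change -0.47, adjusted p = 2e-06). Of 20 tested ATF4 and amino acid response genes 7 fell and 2 rose. Atf5, a factor of the stress response, averaged 48.9 ± 2.67 CPM in APCCM and 74.8 ± 4.51 CPM in WTCM libraries (log2 fold change -0.64, adjusted p = 1.2e-07), and Trib3, its pseudokinase partner in the pathway, 8.89 ± 0.617 CPM in APCCM and 13.4 ± 0.812 CPM in WTCM libraries (log2 fold change -0.62, adjusted p = 0.00013).

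Other lists were called in part. Endoplasmic reticulum stress genes were called lower in 3 of 20, and in 0 without APCCM replicate 3 or WTCM replicate 1. Ribosome biogenesis genes were called lower in 6 of 19 and higher in 1, with 0 lower without WTCM replicate 1 and 1 lower without APCCM replicate 1. Fatty acid oxidation genes were called higher in 3 and lower in 4 of 18, with 2 lower without WTCM replicate 2. Oxidative stress genes were called higher in 6 and lower in 4 of 19, with 2 higher without WTCM replicate 3. Prostaglandin genes were called higher in 2 of 11, and in 1 without APCCM replicate 1 or 2. Microfold cell genes were called higher in 4 and lower in 1 of 7, with a median log2 fold change of 0.63, and Ccl20 is among the 4. Mitochondrially encoded genes were called higher in 6 of 10 and lower in 0, with a median log2 fold change of 0.29, and mt-Nd1 stood at 5062, 4931 and 6394 CPM in APCCM and 4036, 4349 and 4229 CPM in WTCM libraries (log2 fold change 0.35, adjusted p = 0.00042). Of 7 MHC class II genes 1 was tested, and it did not pass.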
